A study of Mus musculus with 20 samples.

Results

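The Cyp4a genes of the mouse encode cytochrome P450 enzymes that hydroxylate fatty acids at or next to the last carbon of the chain. The 6 genes named Cyp4a10, Cyp4a14, Cyp4a12a, Cyp4a12b, Cyp4a31 and Cyp4a32 were taken by symbol from a table of 46078 genes measured by RNA sequencing of mouse liver. All 6 were among the 15744 genes with enough reads to be tested. The study asked how a leaf extract of the bamboo Dendrocalamus latiflorus (DLE) and pioglitazone (PGZ), a PPAR-gamma agonist used against diabetes, change gene expression in the liver of diabetic db/db mice, which lack a working long form of the leptin receptor. The normal group was C57BL/6J wild-type mice given saline, and the model group was db/db mice given saline. The PGZ group was db/db mice given 20 mg/kg pioglitazone, and the DLE group was db/db mice given 200 mg/kg of the extract, both over 12 weeks. Each group held 4 libraries, named here as in the labels, and a white tea extract group was not analysed here. The sex and age of the mice, the strain background of the db/db mice and any sequencing batch are not given in the labels, so db/db genotype and any difference in strain background cannot be told apart in comparisons with the normal group. Nothing in the labels says how the 4 samples of a group were housed or whether tissue was pooled, so p-values measure only the spread between these samples.

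Cyp4a enzymes start omega-oxidation, in which a fatty acid is hydroxylated at its far end, oxidised further to a dicarboxylic acid by alcohol and aldehyde dehydrogenases, and then shortened in peroxisomes. In mouse liver, Cyp4a10 and Cyp4a14 are textbook targets of PPAR-alpha, the nuclear receptor that fatty acids and fibrate drugs activate. Cyp4a12a and its near-copy Cyp4a12b are known as male-predominant genes of mouse liver and kidney that depend on growth hormone and androgen, and Cyp4a12a is the main producer of the vasoactive lipid 20-HETE in male mice. Cyp4a31 and Cyp4a32 are copies close to Cyp4a10 whose roles are less studied.

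Total counts ran from 16922833 to 25119799 reads per library, and no pair of libraries of a group agreed within sampling noise. The 10 hepatocyte markers examined, such as albumin, were read in every group, while the 8 markers of kidney, the other main site of Cyp4a12a, summed to at most 1.13 CPM in any library, with Kap and Slc12a1 at 0. CPM is the count scaled to a common library size. Some libraries stood apart in the RNA of acute-phase proteins, which the liver secretes in inflammation. The 10 acute-phase genes summed to 164774 CPM in model_327, 81439 in model_387, 43939 in model_DLE_361 and 39948 in model_PGZ_328, against 6032 to 14541 CPM in the other 12 libraries. In bulk liver, fewer cells of a type and less RNA per cell cannot be told apart.

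All 6 genes lie in a cluster on chromosome 4 (GRCm38 build), each with 12 coding exons. Cyp4a12a spans chr4:115299046-115332815, Cyp4a12b chr4:115411624-115439034, Cyp4a14 chr4:115486200-115496142, Cyp4a10 chr4:115518264-115533649, Cyp4a31 chr4:115563649-115579015 and Cyp4a32 chr4:115600969-115621602. Cyp4a14 is on the minus strand and the other 5 on the plus strand. Coding lengths ran from 1521 to 1527 bases. The first 60 bases of the last coding exon are shown to compare the 6 genes where the enzymes bind heme. These bases hold the codon tgc of the heme-binding cysteine at bases 5 to 7 in all 6 genes. They lie at chr4:115532531-115532590 (Cyp4a10), chr4:115487252-115487311 (Cyp4a14, minus strand), chr4:115331834-115331893 (Cyp4a12a), chr4:115438057-115438116 (Cyp4a12b), chr4:115577936-115577995 (Cyp4a31) and chr4:115621434-115621493 (Cyp4a32). Capitals mark bases that differ from Cyp4a10.
Cyp4a10: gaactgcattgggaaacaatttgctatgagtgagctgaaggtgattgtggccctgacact
Cyp4a14: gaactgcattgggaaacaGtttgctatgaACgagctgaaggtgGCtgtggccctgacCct
Cyp4a12a: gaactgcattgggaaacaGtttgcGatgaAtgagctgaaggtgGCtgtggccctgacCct
Cyp4a12b: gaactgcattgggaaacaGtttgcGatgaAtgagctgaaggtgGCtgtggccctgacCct
Cyp4a31: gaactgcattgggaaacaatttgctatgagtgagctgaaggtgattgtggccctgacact
Cyp4a32: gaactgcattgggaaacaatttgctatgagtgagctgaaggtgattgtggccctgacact

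Over this stretch Cyp4a31 and Cyp4a32 had the bases of Cyp4a10 throughout, and Cyp4a12a and Cyp4a12b were the same as each other. Over the whole coding sequence Cyp4a12a and Cyp4a12b were 98.5% identical, with 23 differences in 1524 bases. Cyp4a10 was 97.2% identical to Cyp4a32 and 96.6% to Cyp4a31, and Cyp4a31 was 96% identical to Cyp4a32. Cyp4a14 stood apart, with 75.1% to 76.1% identity to the others. The stretches below were chosen for their many differences between near-copies, which can let a read tell them apart. Cyp4a12a and Cyp4a12b differed at 4 of 60 bases in coding exon 6, at chr4:115326628-115326687 and chr4:115432881-115432940 on the plus strand, with differences in capitals.
Cyp4a12a: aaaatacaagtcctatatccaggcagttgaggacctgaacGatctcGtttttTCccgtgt
Cyp4a12b: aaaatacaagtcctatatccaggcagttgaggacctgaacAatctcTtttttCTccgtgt

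Cyp4a10, Cyp4a31 and Cyp4a32 varied at 9 of 60 bases in coding exon 2, with the varying positions in capitals. The stretch was chosen by the differences of both copies from Cyp4a10, added together. Cyp4a32 had another base than Cyp4a10 at all 9 positions, and Cyp4a31 at fewer of them. The stretches lie at chr4:115519654-115519713, chr4:115565034-115565093 and chr4:115602284-115602343 on the plus strand.
Cyp4a10: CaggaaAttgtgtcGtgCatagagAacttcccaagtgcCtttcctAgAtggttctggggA
Cyp4a31: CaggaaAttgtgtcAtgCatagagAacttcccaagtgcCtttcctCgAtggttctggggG
Cyp4a32: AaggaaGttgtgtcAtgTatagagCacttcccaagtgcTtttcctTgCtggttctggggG

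How the authors counted reads that match several genes is not given in the sources used here, so sequence sharing limits what a count can say. Of all windows of 100 bases in the coding sequence, 41.3% of those of Cyp4a12a were found unchanged in Cyp4a12b, and the same share the other way. Windows shared within the group of Cyp4a10, Cyp4a31 and Cyp4a32 made up 17.9%, 13.9% and 20.1% of their windows. No window of Cyp4a14 was shared with any of the other 5 genes, so its counts are the least exposed to such sharing. The split of reads between near-copies is therefore uncertain, and sums over the copies are given where they change a result.

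Cyp4a14 rose most of the 6 in untreated db/db liver. Its level was 2.43, 9.95, 1.66 and 2.88 CPM in normal_346, normal_349, normal_376 and normal_409. In model_327, model_329, model_387 and model_407 it was 259.9, 923, 31.5 and 590.1 CPM. Every model library was above every normal library, although the model libraries themselves spread 29.3-fold. The means were 4.23 ± 3.85 and 451 ± 389 CPM (SD, n = 4 each), a log2 fold change of 6.73 (95% interval 4.66 to 8.81) with an adjusted p of 0.000964 in edgeR's quasi-likelihood test.

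Cyp4a10 rose too, from a higher starting level. It was at 44.7, 57.9, 34.0 and 60.1 CPM in the normal libraries. In the model libraries it was at 210.3, 1330, 57.6 and 773.7 CPM. Library model_387 lay inside the normal range, so the groups overlapped, and the other 3 model libraries were above it. The log2 fold change was 3.59 ± 0.69 (SE) with an edgeR adjusted p of 0.00619. With the reads of Cyp4a31 and Cyp4a32 added to Cyp4a10 as 1 feature the log2 fold change was 1.98 and the adjusted p 0.0568, and with only normal and model libraries in the fit the adjusted p was 0.0703.

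Of the 6 genes, 2 were called higher in model than in normal liver at an edgeR adjusted p under 0.05, where 6.18% of all tested genes were called higher, and 0 were called lower, where 2.9% were. In either direction 9.08% of all genes were called. Groups without overlap were found upwards for Cyp4a14, against 6.57% of all genes, and downwards for Cyp4a12b, against 7.13%. At an unadjusted p under 0.05, 1 of the 6 was lower, and among the members DESeq2 called 1 lower and limma voom 2. In either direction DESeq2 called 2440 and voom 4325 of all 15744 genes, so these looser counts have a higher background.

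**Figure D1:**
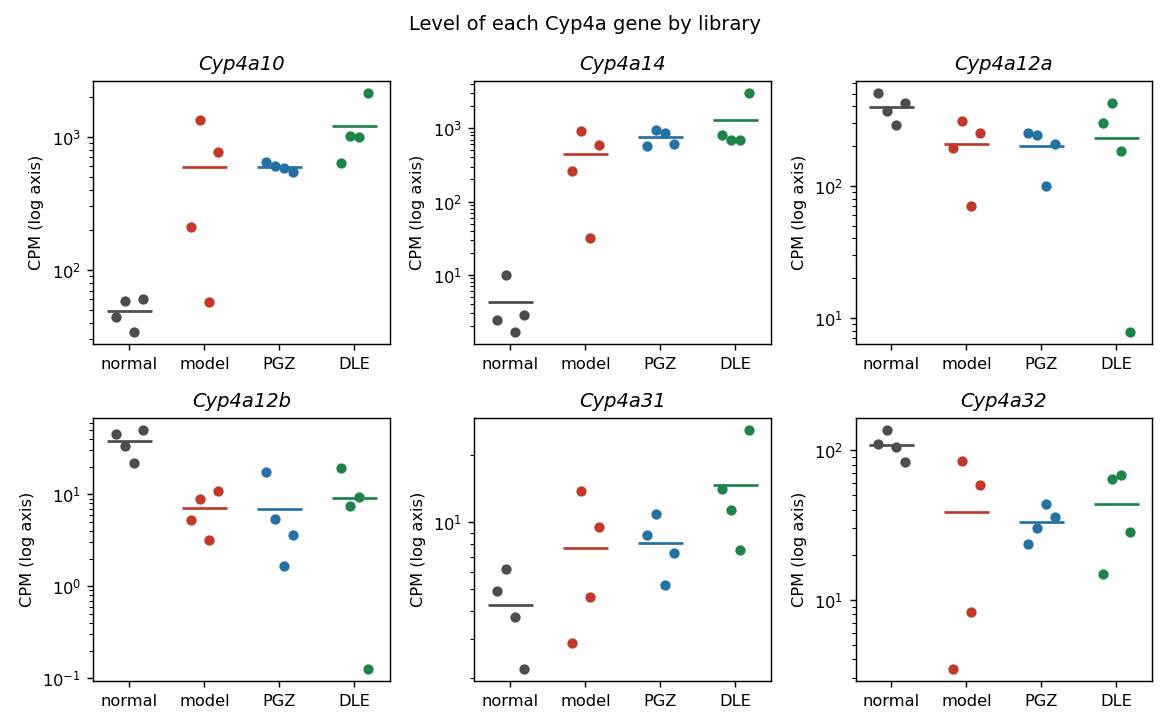
Level of each Cyp4a gene in CPM on a log axis, with 1 point per library and a line at the mean of each group of 4. Cyp4a10 and Cyp4a14 sit far higher in most db/db libraries than in normal ones, Cyp4a12b sits lower in all of them, and the points of the model group are the most spread for Cyp4a10 and Cyp4a14.

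The Cyp4a12 copies were not called in model liver in edgeR, and Cyp4a12b was below the normal range in every library. Cyp4a12b was at 45.0, 33.5, 21.97 and 50.4 CPM in the normal libraries and at 5.30, 8.82, 3.19 and 10.8 CPM in model_327, model_329, model_387 and model_407. Every model library was below every normal one. The log2 fold change was -2.42 (95% interval -4.25 to -0.59), with an unadjusted p of 0.0128 and an edgeR adjusted p of 0.0867, so the gene did not pass the test over all genes. DESeq2 and voom called Cyp4a12b lower.

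Cyp4a12a, the most abundant of the 6 per kilobase of exon in normal liver, was at 505, 368, 289 and 423 CPM there. In the model libraries it was at 194, 309.8, 70.5 and 252 CPM. The ranges overlapped through model_329, and the log2 fold change of -0.94 ± 0.71 (SE) had an edgeR adjusted p of 0.401. With the reads of both copies summed the log2 fold change was -1.02 with an adjusted p of 0.36. Cyp4a12b stood at 7.60% to 11.9% of the CPM of Cyp4a12a in the normal libraries and at 1.62% to 6.88% in the 12 db/db libraries, so the ranges of this ratio did not overlap. Because the copies share much of their sequence, this ratio also depends on how shared reads were counted.

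Cyp4a32 and Cyp4a31, both close to Cyp4a10 in sequence, did not pass the edgeR test in model liver. Cyp4a32 was at 110.8, 137, 105 and 82.8 CPM in the normal libraries and at 3.45, 84.5, 8.24 and 59.0 CPM in the model libraries. Only model_329 reached the normal range, and the log2 fold change of -1.49 (95% interval -3.0 to 0.03) had an edgeR adjusted p of 0.186, while voom called it lower (adjusted p 0.0428). Cyp4a31 was low in both, at 2.19 to 6.19 CPM in the normal and 2.87 to 13.8 CPM in the model libraries, with a log2 fold change of 0.84 and an adjusted p of 0.248, and voom called it higher (adjusted p 0.0402). Among the model libraries, model_329 and model_407 had the highest and model_327 and model_387 the lowest levels of all 6 Cyp4a genes.

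Pioglitazone-treated db/db liver showed the same pair high, with its 4 libraries close together. Cyp4a10 was at 645.9, 608.7, 586 and 539.9 CPM in model_PGZ_328, model_PGZ_360, model_PGZ_404 and model_PGZ_408. The highest was 1.20 times the lowest, against 23.1 times in the model group. Cyp4a14 was at 568.1, 953.1, 866 and 611 CPM in the same libraries. All 4 PGZ libraries were above all normal libraries for both genes, with log2 fold changes over normal of 3.60 (edgeR adjusted p 0.00404) and 7.47 (adjusted p 0.000366). With the reads of Cyp4a31 and Cyp4a32 added, that of Cyp4a10 was 1.97, with an edgeR adjusted p of 0.0489.

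Against the model group, 0 of the 6 genes passed the test in PGZ libraries, and 0.0127% of all genes did. The ranges overlapped for all 6, where 2.87% of all genes lay wholly higher and 2.01% wholly lower with PGZ. At an unadjusted p under 0.05 the count of members was also 0, and DESeq2 and voom called 0 of the 6 while calling 135 and 1637 genes in all. Cyp4a10 had means of 595 ± 44.4 CPM with PGZ and 593 ± 580 CPM without it (SD, n = 4 each). The interval of its log2 fold change ran from -1.31 to 1.32, and that of Cyp4a14, at 0.73, from -0.88 to 2.34. These intervals do not show that the groups were alike. Without model_327 and model_387 the log2 fold change of Cyp4a10 was -0.82 with an adjusted p of 0.493.

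The Cyp4a12 copies were also low with pioglitazone. Cyp4a12a was at 252, 242.5, 100.3 and 206 CPM, below every normal library, with a log2 fold change over normal of -0.98 and an edgeR adjusted p of 0.363. Cyp4a12b was at 17.4, 5.32, 1.67 and 3.60 CPM, also below every normal library, with a log2 fold change of -2.43 and an adjusted p of 0.0749. Without model_PGZ_328, which had the highest level, it was called, at -3.41 with an adjusted p of 0.0273. Cyp4a32 was at 23.6, 30.2, 43.8 and 35.7 CPM, again below every normal library, with a log2 fold change of -1.71 and an adjusted p of 0.125. Thus 3 of the 6 genes lay wholly below and 2 wholly above the normal range, where 15.7% and 16.5% of all genes did. Of the 6, 2 were called higher, against 6.15% of all genes. The count called lower was 0 in edgeR, where 6.08% of all genes were called lower. At an unadjusted p under 0.05, 2 members were lower, and DESeq2 called 1 lower and voom 2. In either direction DESeq2 called 3004 and voom 6333 of all 15744 genes, so these looser counts have a higher background.

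The highest Cyp4a10 and Cyp4a14 levels of the study were in model_DLE_401. In model_DLE_361, model_DLE_373, model_DLE_378 and model_DLE_401 Cyp4a10 was at 637, 1019, 1000 and 2136 CPM. Cyp4a14 was at 814, 695, 679 and 3010 CPM in the same order. Every DLE library was above every normal library for both genes, and model_DLE_401 stood well above the other 3. The log2 fold changes over normal were 4.61 for Cyp4a10 (edgeR adjusted p 0.00132) and 8.26 for Cyp4a14 (adjusted p 3e-04). With the reads of Cyp4a31 and Cyp4a32 added, that of Cyp4a10 was 2.95, with an edgeR adjusted p of 0.0165.

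The same library had the lowest Cyp4a12 levels. Cyp4a12a was at 301, 427, 183 and 7.78 CPM in model_DLE_361, model_DLE_373, model_DLE_378 and model_DLE_401. Cyp4a12b was at 19.3, 7.46, 9.37 and 0.126 CPM, the last resting on 3 reads. For Cyp4a12b all DLE libraries were below all normal ones, while for Cyp4a12a model_DLE_361 and model_DLE_373 were within the normal range. The log2 fold changes over normal were -2.06 for Cyp4a12b (edgeR adjusted p 0.239) and -0.79 for Cyp4a12a (adjusted p 0.668).

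Cyp4a31 was at 14.1, 11.3, 7.53 and 26.1 CPM in the DLE libraries, all above the normal libraries. Its log2 fold change of 1.79 over normal had an edgeR adjusted p of 0.0482. Leaving out any 1 of the 8 normal and DLE libraries other than model_DLE_378 raised that adjusted p above the threshold, to between 0.0666 and 0.177, and so did fitting without a filter on low counts, at 0.0618. Cyp4a32 was at 14.9, 63.8, 68.5 and 28.2 CPM, below every normal library, with a log2 fold change of -1.31 and an adjusted p of 0.4. In all, 3 of the 6 genes were called higher in DLE than in normal liver, against 1.84% of all genes, or 3.54% in either direction. The count called lower was 0 in edgeR, against 1.7% of all genes. At an unadjusted p under 0.05, 1 member was lower, and DESeq2 called 0 lower and voom 1. In either direction DESeq2 called 1071 and voom 1512 of all 15744 genes. The 3 genes wholly above the normal range and the 2 wholly below it compare with 6.03% and 6.22% of all genes.

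**Figure D2:**
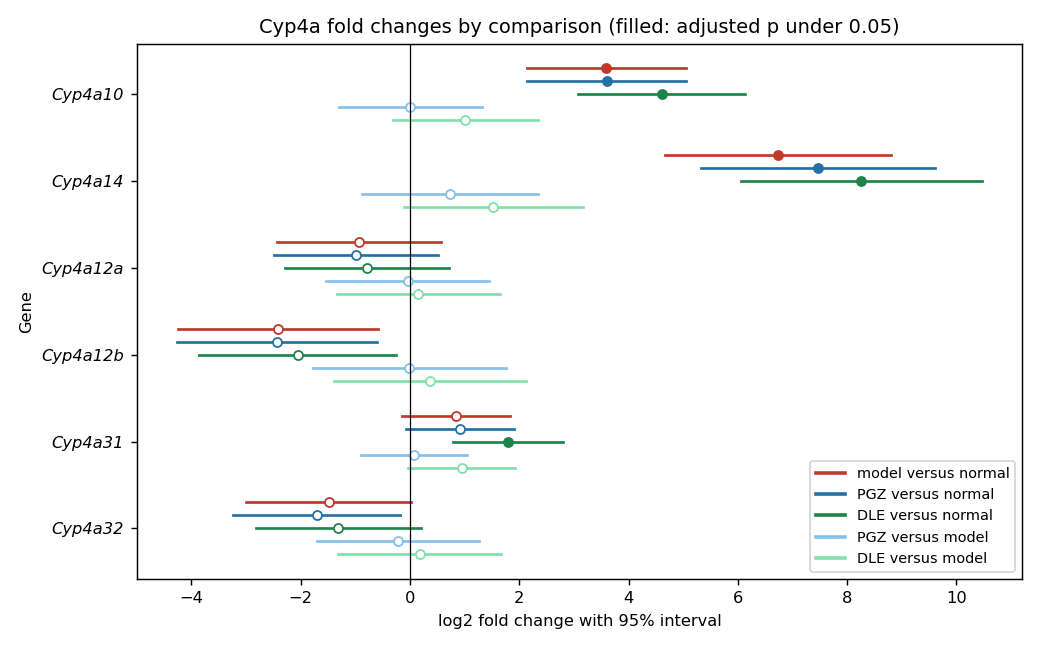
Log2 fold change of each Cyp4a gene in 5 comparisons, with bars for the 95% interval and filled points where the adjusted p was under 0.05. The filled points belong to Cyp4a10 and Cyp4a14 against normal liver and to Cyp4a31 with DLE, and every interval of PGZ or DLE against the model group crosses 0.

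Against the model group, 0 of the 6 genes passed the edgeR test with DLE, and 0% of all genes did. For no member were the groups without overlap, where 1.6% of all genes lay wholly higher and 1.09% wholly lower. At an unadjusted p under 0.05 there was again no member, and DESeq2 and voom called 0 of the 6 while calling 386 and 12 genes in all. The largest differences were those of Cyp4a14, with a log2 fold change of 1.53 (95% interval -0.11 to 3.17, adjusted p 0.381), and Cyp4a10, at 1.02 (interval -0.31 to 2.34, adjusted p 0.462). Cyp4a31 was at 0.95 (interval -0.03 to 1.92, adjusted p 0.368). Without model_DLE_401 the values of Cyp4a14 and Cyp4a10 were 0.69 and 0.57. The PGZ and DLE comparisons share the 4 model libraries.

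Between DLE and PGZ, 0 of the 6 genes were called in edgeR, at an unadjusted p under 0.05, in DESeq2 or in voom, and 0.00635% of all genes were called in edgeR. The DLE and PGZ ranges overlapped for all 6 genes, where 4.24% of all genes lay wholly higher and 4.2% wholly lower with DLE. Cyp4a10 was higher by 1.009 on the log2 scale with DLE (95% interval -0.32 to 2.33, adjusted p 0.569), and Cyp4a14 by 0.79 (interval -0.82 to 2.41, adjusted p 0.706). Without model_DLE_401 the log2 fold change of Cyp4a14 was -0.05. The agents were given at different doses, so their values stand side by side and no order of potency follows.

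The make-up of Cyp4a RNA differed between normal and db/db liver. Cyp4a10 and Cyp4a14 together held 6.61% to 11.1% of the summed CPM of the 6 genes in normal libraries. In the model group they held 69.5%, 84.4%, 50.7% and 80.4% in model_327, model_329, model_387 and model_407, with PGZ 80.1% to 90.6%, and with DLE 77.1% to 98.8%. Thus the lowest db/db share was above the highest normal share. The log2 ratio of Cyp4a10 and Cyp4a14 to the Cyp4a12 copies was -3.55 to -2.56 in normal libraries and 0.275 to 9.35 in the 12 db/db libraries, with no overlap. No test is given for the ratio, because the genes were grouped with earlier results known. Library model_387, in which Cyp4a10 itself was within the normal range, still had a ratio of 0.275, above every normal library, as its Cyp4a12 copies summed to 73.6 CPM against 311 CPM in the lowest normal library.

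Summed over the 6 genes, the level was 600.4 ± 107 CPM in normal liver and 1304 ± 1108 CPM in model liver (SD, n = 4 each). The sum was 1593 ± 190.0 CPM with PGZ and 2795 ± 1618 CPM with DLE (SD, n = 4 each). Library model_387, at 176 CPM, was below every normal library, and model_327, at 676 CPM, was within the normal range of 455 to 713 CPM. The other 10 db/db libraries, at 1404 to 5208 CPM, were above it.

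**Figure D3:**
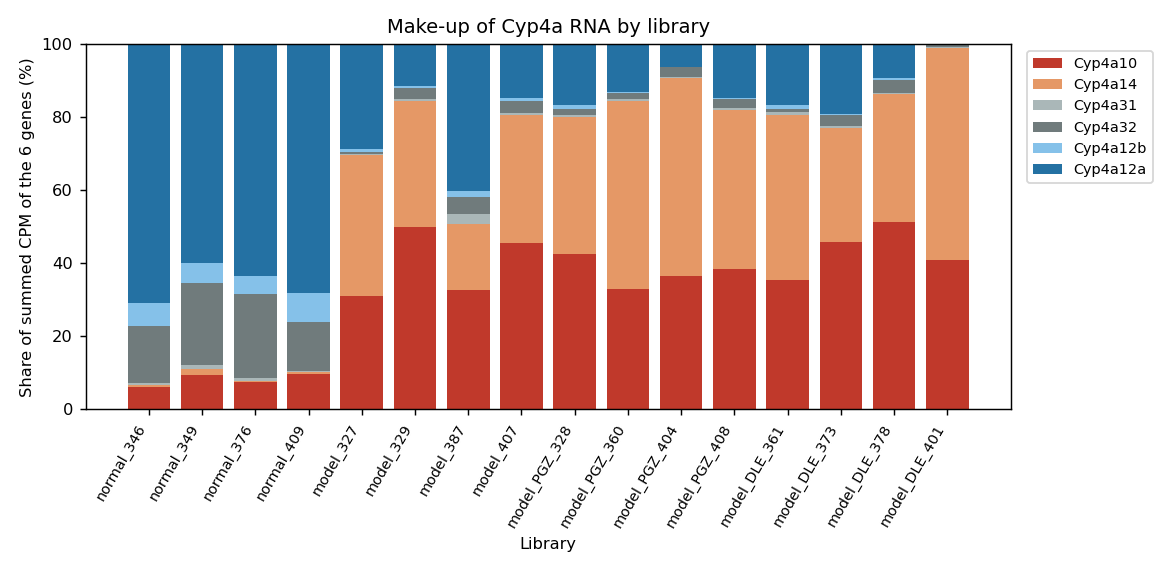
Share of each Cyp4a gene in the summed CPM of the 6 genes, in percent, with 1 bar per library. Cyp4a12a fills most of the normal bars, Cyp4a10 and Cyp4a14 fill at least 50.7% of every db/db bar, and model_DLE_401 holds almost no Cyp4a12 RNA.

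Per kilobase of exon, the order of the levels differed between groups. In normal liver it was Cyp4a12a at 163.5, Cyp4a32 at 70.9, Cyp4a10 at 23.3, Cyp4a12b at 15.7, Cyp4a31 at 1.70 and Cyp4a14 at 1.63 CPM per kilobase. The ranges of Cyp4a10 and Cyp4a12b overlapped, as did those of Cyp4a31 and Cyp4a14, and the other neighbours were apart. In model liver the order began with Cyp4a10 at 281, Cyp4a14 at 173 and Cyp4a12a at 85.3 CPM per kilobase, and the ranges of all neighbours overlapped. In PGZ liver Cyp4a14 at 288 and Cyp4a10 at 282 CPM per kilobase overlapped each other and were both apart from Cyp4a12a at 82.7. In DLE liver Cyp4a10 at 568 and Cyp4a14 at 499.7 likewise overlapped, and Cyp4a14 was apart from Cyp4a12a at 94.9. The annotated Cyp4a32 transcript holds almost only coding bases, 1536 in all, so its level per kilobase may be set too high relative to the others. Cyp4a14 stood at 0.05 to 0.17 of the CPM of Cyp4a10 in normal libraries and at 0.55 to 1.57 of it in db/db libraries.

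Within the model group the Cyp4a levels split with the acute-phase level between pairs of libraries, but did not follow its order throughout. Both model_327 and model_387, with 164774 and 81439 CPM of acute-phase RNA, had the lowest levels of Cyp4a10, Cyp4a14 and Cyp4a12a, and model_329 and model_407, with 6364 and 14541 CPM, the highest. Of the former, model_327 had the more acute-phase RNA but also more Cyp4a10 (210.3 against 57.6 CPM), Cyp4a14 (259.9 against 31.5 CPM) and Cyp4a12a (194 against 70.5 CPM). Of the latter, model_329 had the less acute-phase RNA and more of each of these genes. Saa1, a serum amyloid of the acute phase, was at 27783 and 10191 CPM in the first pair and at 94.9 and 1360 CPM in the second. The 10 neutrophil markers summed to 2175 CPM and the 10 Kupffer cell markers to 1902 CPM in model_387, and to 22.6 and 212 CPM in model_327. Library model_PGZ_328, with 39948 CPM of acute-phase RNA, had the highest Cyp4a10 level of its group, and model_DLE_361, with 43939 CPM, the lowest of its own. For Cyp4a14 model_PGZ_328, at 568.1 CPM, was the lowest of its group and model_DLE_361, at 814 CPM, the second highest. The part of inflammation in these levels was not tested. Without model_327 and model_387 the log2 fold changes over normal were 4.42 for Cyp4a10 and 7.48 for Cyp4a14, and both were called.

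**Figure D4:**
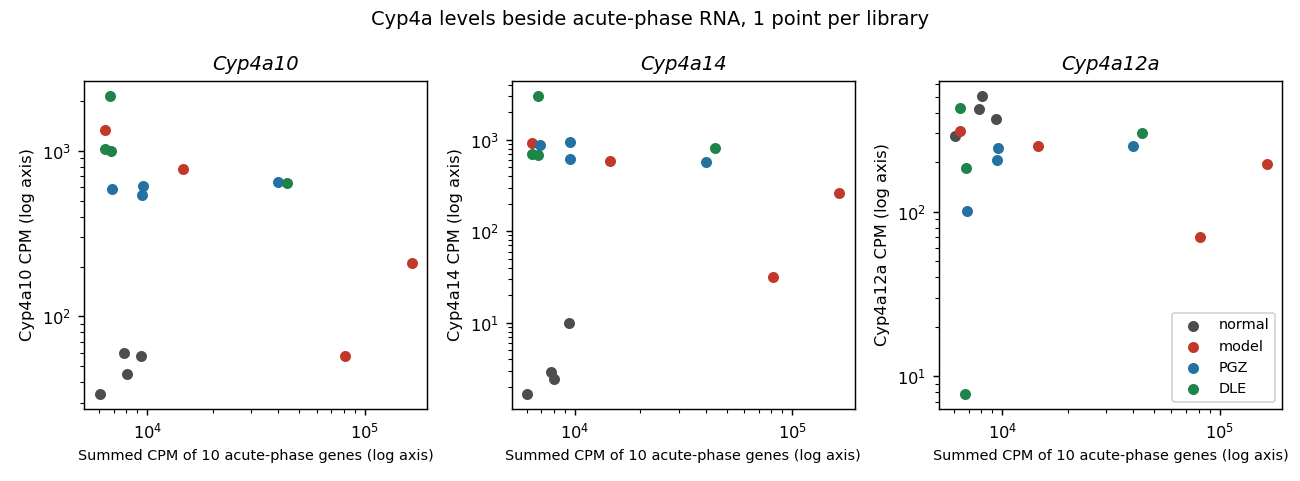
CPM of Cyp4a10, Cyp4a14 and Cyp4a12a against the summed CPM of 10 acute-phase genes, both on log axes, with 1 point per library coloured by group. Within the model group model_327 and model_387, with most acute-phase RNA, have the lowest Cyp4a levels, with model_387 the lower. In contrast, model_PGZ_328 and model_DLE_361 lie near the other libraries of their groups.

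Some of the other PPAR-alpha targets rose as well. Of 35 listed genes, 34 were tested, and 8 were called higher and 0 lower in model than in normal liver, with a median log2 fold change of 0.42 against 0.07 over all genes tested. Leaving out any 1 normal library gave 3 or 4 higher, leaving out model_327 gave 5, and an unadjusted p under 0.05 was reached by 13 in either direction. Among them were Cd36, which takes up fatty acids, with a log2 fold change of 4.76 (edgeR adjusted p 5.92e-05), Vnn1, a pantetheinase, at 3.51 (adjusted p 0.00214), and Ucp2, a mitochondrial carrier, at 2.55 (adjusted p 0.00575). With PGZ 19 were higher and 1 lower than in normal liver, with a median of 0.81 against 0.03, and without normal_376, model_PGZ_360 or model_PGZ_404 the count higher was 11, 11 and 12. Acot2, an acyl-CoA thioesterase, was among them at 3.52 (adjusted p 0.000121). With DLE 8 were higher than in normal liver, with a median of 0.57 against 0.04, and with Acot4 at 2.85 (adjusted p 0.00201). Of all genes tested, 6.18%, 6.15% and 1.84% were called higher in model, PGZ and DLE against normal liver.

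Ppara, which encodes the receptor itself, was at 27.7 ± 5.27 CPM in normal and 19.6 ± 10.4 CPM in model liver (SD, n = 4 each). With PGZ it was at 36.7 ± 6.45 CPM and with DLE at 53.3 ± 20.0 CPM (SD, n = 4 each), and edgeR called it in none of the 6 comparisons. DESeq2 called it higher in DLE than in model liver (adjusted p 0.0102), as did edgeR without model_329 (adjusted p 0.0337). Voom called it higher in PGZ than in model liver (adjusted p 0.0411) and in DLE than in normal liver (adjusted p 0.0133), and edgeR called the latter without the 4 acute-phase-rich libraries (adjusted p 0.00381). Within the model group it was at 10.2 and 11.6 CPM in model_327 and model_387, those low in Cyp4a10, and at 31.5 and 25.3 CPM in model_329 and model_407. The log2 fold change between DLE and model was 1.44 with an edgeR adjusted p of 0.213. Pparg, the receptor of pioglitazone, rose by 1.41 in model, 1.84 in PGZ and 1.33 in DLE over normal liver (log2 scale, adjusted p 0.00411, 0.000366 and 0.00634). It was the one gene of 14 tested PPAR receptors, partners and coregulators that was called higher in each of these comparisons.

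Of the enzymes and transporters that act with Cyp4a proteins, 13 were tested. Abcd2, a peroxisomal transporter of fatty acids, rose in all db/db groups, with means of 0.479 CPM in normal liver and 2.74, 17.9 and 8.46 CPM in the model, PGZ and DLE groups. It was the one gene of the list called between PGZ and model, with a log2 fold change of 2.70 and an edgeR adjusted p of 0.0397. That call was lost, at adjusted p values of 0.0551 to 0.215, without any 1 of model_327, model_387 and model_407 or model_PGZ_360, model_PGZ_404 and model_PGZ_408. Aldh3a2, which oxidises the fatty aldehyde made from an omega-hydroxy acid, rose by 2.44 with PGZ (adjusted p 0.00241) and by 1.71 with DLE (adjusted p 0.0338) over normal liver on the log2 scale. The DLE call held without model_DLE_361 and was lost, at adjusted p values of 0.0698 to 0.104, without any other 1 of the normal and DLE libraries. Acsl1, an acyl-CoA synthetase, fell by 1.58 and Adh7, an alcohol dehydrogenase, fell by 0.98 on the log2 scale in model against normal liver (edgeR adjusted p 0.0172 and 0.0315). The Acsl1 call was lost with only the groups compared (adjusted p 0.109) and without model_327 and model_387 (adjusted p 0.0862). In the same 2 fits Adh7 had adjusted p values of 0.0808 and 0.0883, and its call was also lost without any 1 of normal_346, normal_349, normal_409, model_387 and model_407, at 0.055 to 0.0848.

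Cyp4 genes other than the 6 members showed mixed directions. Of 14 found, which included Cyp4a29 and Cyp4a30b of the Cyp4a subfamily, 8 were tested. Cyp4f13 fell by 1.11 in model and by 1.23 in PGZ against normal liver on the log2 scale (edgeR adjusted p 0.0231 and 0.0107), and Cyp4f14, which acts on leukotriene B4, fell by 1.804 with PGZ (adjusted p 0.0133, and 0.0501 without model_PGZ_360). The model call of Cyp4f13 was lost without any 1 of normal_376 and normal_409 and model_387, at adjusted p values of 0.0552 to 0.0689. Cyp4f18, known from neutrophils, was called higher in model and PGZ liver from a normal level of 0.106 CPM to 1.23 and 1.13 CPM (edgeR adjusted p 0.0394 and 0.0382). The model call was lost without any 1 of normal_349, normal_376, normal_409, model_387 and model_407, at adjusted p values of 0.0588 to 0.114, and without both model_327 and model_387, at 0.188. The PGZ call was lost without any 1 of normal_349, normal_376, normal_409, model_PGZ_328, model_PGZ_360 and model_PGZ_404, at 0.0653 to 0.101. The 10 neutrophil markers summed to 0.95 to 1.51 CPM in normal, 2.37 to 2175 in model and 4.42 to 368 in PGZ libraries, and their part in the level of Cyp4f18 was not tested. With DLE against normal liver 0 of the 8 were called in edgeR, where 1 had an unadjusted p under 0.05, while DESeq2 called 0 and voom 1.

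Genes that share the known male predominance of Cyp4a12a were low in every db/db group. Of 21 listed male-biased genes, 15 were called lower in model, 19 in PGZ and 15 in DLE against normal liver, with median log2 fold changes of -3.56, -4.22 and -4.30 against 0.07, 0.03 and 0.04 over all genes tested. Of all genes tested, 2.9%, 6.08% and 1.7% were called lower in the same comparisons. Selenbp2 was at 3990 to 4397 CPM in normal libraries and at 2.48 to 11.4 CPM in db/db libraries. Hsd3b5, a steroid reductase, averaged 208.7 CPM in normal and 0.161 CPM in model liver. The log2 differences of Cyp4a12b and Cyp4a12a, at -2.42 and -0.94 in model liver, were smaller than the median of that list. Library model_DLE_401, lowest in Cyp4a12a, also had the lowest summed CPM of the male-biased genes, at 763 CPM against 1136 to 3539 in the other DLE libraries.

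Of 21 female-biased genes, 14 were called higher in model, 12 in PGZ and 12 in DLE against normal liver, and without any 1 normal library the first count was 8 to 10. Of all genes tested 6.18%, 6.15% and 1.84% were called higher. The median log2 fold changes of the list were 6.08, 5.04 and 7.08, against 0.07, 0.03 and 0.04 over all genes tested. The mean level of Cyp2b9 was 0.286 CPM without the mutation and 188, 238 and 384 CPM in the model, PGZ and DLE groups. The sex of the mice is not given in the labels and was not looked for in the counts. A difference in sex between the groups was therefore not separated from genotype here. Of 16 genes of growth hormone signalling, 2 were called higher and 2 lower in model, 0 and 7 in PGZ, and 0 and 2 in DLE against normal liver. Of all genes tested 2.9%, 6.08% and 1.7% were called lower in these comparisons. The median log2 fold changes of the list were -0.475, -0.641 and -0.488. Counts of 2 lower in a list of 16 are above the shares of 2.9% and 1.7%, but rest on few genes. Ptpn1, a phosphatase that acts on cytokine receptor signalling, was among the higher ones at a log2 fold change of 2.05 (edgeR adjusted p 0.0242), and at 0.12 (adjusted p 0.871) without model_327 and model_387. Socs2, a feedback inhibitor of the pathway, fell by 2.64 in model and 2.01 in PGZ against normal liver on the log2 scale (edgeR adjusted p 0.00444 and 0.0113). Bcl6, a repressor that growth hormone controls, fell by 1.58, 2.50 and 1.91 in model, PGZ and DLE (adjusted p 0.0219, 0.00117 and 0.0109). The model call of Bcl6 was lost without normal_376 (adjusted p 0.0779), and without model_327 and model_387 neither Socs2 nor Bcl6 was called there (adjusted p 0.0611 and 0.137). Ghr, the receptor, was not called in edgeR, with log2 fold changes of -0.44, -0.62 and -0.60 in the same order, nor was Stat5b, which carries its signal, at -0.51, -0.64 and -0.31. With PGZ against normal liver both were called lower by voom (adjusted p 0.00262 for Ghr and 0.000684 for Stat5b) and with only the groups compared in edgeR (adjusted p 0.0485 and 0.00869). There Stat5b was also called by DESeq2 (adjusted p 0.0252) and without the 4 acute-phase-rich libraries (adjusted p 0.00528), and voom called Ghr with DLE (adjusted p 0.0209).

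The genes whose pattern over the 16 libraries lay closest to each member were found by the root mean square difference of centred log2(CPM + 0.5) values among 13751 genes. For Cyp4a10 they were Vldlr, a lipoprotein receptor, at 0.60, Mfsd2a, a transporter of lysolipids, at 0.77, and Ppp1r3g, a glycogen-targeting phosphatase subunit, at 0.84. For Cyp4a14 they were Cyp2b9 at 0.95, Cyp2a22 at 1.06 and Slc22a27 at 1.42, and Cyp4a10 came at rank 6. Seen from Cyp4a10, however, Cyp4a14 came only at rank 512, behind Cyp4a31 at rank 101. Both Cyp2b9 and Slc22a27 are on the list of female-biased genes and were called higher in each db/db group than in normal liver. For Cyp4a12a they were Rarres1 at 0.85, the mitochondrial gene ND4L at 0.92 and Sp5 at 0.97, and for Cyp4a12b the major urinary protein gene Mup10 at 0.81, Ces3a at 0.82 and Nudt7 at 0.88. Each Cyp4a12 copy was among the 3 closest genes of the other, which also depends on how shared reads were counted. Cyp4a14 came at rank 13749 for both. The distance is not scaled, and the root mean square of the centred values was 3.41 for Cyp4a14, 1.383 for Cyp4a12a and 1.625 for Cyp4a12b. That rank therefore also reflects the wide variation of Cyp4a14. These distances describe the same 16 libraries and 4 groups as the levels themselves.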

How the data were processed

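Liver RNA of mice was sequenced, and the deposited table holds the authors' whole-number read counts per Ensembl gene for each library, not normalized. The labels' protocols name TRIzol extraction, DNase treatment and Illumina libraries. Per the submitters' processing notes, the build was GRCm38 and the tools included HISAT2 2.1.0, StringTie 1.3.3b and CASAVA 1.8.2, with no step assigned to any of them. Strand setting, annotation and the handling of reads that match several genes are not given in the sources used here. Groups came from the labels. Columns of the white tea extract group, 4 in number, held no values and were not used.

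Counts of 16 libraries in 4 groups were fitted together in R 4.3.3 with edgeR 4.0.16 (filterByExpr, TMM scaling, robust glmQLFit and glmQLFTest). P-values are two-sided and were adjusted by Benjamini and Hochberg's method over the 15744 tested genes, and genes were called at an adjusted p under 0.05. Levels are CPM after TMM scaling, and intervals are 95% intervals of the fit. Totals of 16922833 to 25119799 counts set the counting precision, and intervals over libraries include it. The procedure was tested on simulated counts with 200 changed genes. Coordinates, exon lengths and coding sequences came from GENCODE M21 transcripts on GRCm38, with sequence identity from Biopython 1.88 alignments. Named genes were all members, up to 3 called genes with the smallest p of each gene list and comparison, Ppara, Ghr, Stat5b and Bcl6, and the 3 genes closest in pattern to each of 4 members. The values of Cyp4a10 in single libraries, Saa1 and marker sums were described after they were seen. The members and lists were chosen with earlier results of these data known. Alternatives were RLE and upper quartile scaling, no filter and at least 1 CPM in 4 libraries, a fit of only the groups compared, DESeq2 1.42.0, limma 3.58.1 voom with quality weights, near-copies summed, each library left out, and libraries rich in acute-phase RNA left out.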

Additional observations from a re-analysis of the deposited data

Results flagged for a closer look

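A single library far from the other 3 of its group was found in 3 of the 28 combinations of group and measure screened (the 6 genes and their log2 ratio in 4 groups). Chance flags about 1 in 20 such groups. Cyp4a14 was at 9.95 CPM in normal_349, while the other normal libraries were at 1.66 to 2.88 CPM. Cyp4a14 was at 3010 CPM in model_DLE_401, while the other DLE libraries were at 679 to 814 CPM. The log2 ratio of Cyp4a10 and Cyp4a14 to the Cyp4a12 copies was 9.35 in model_DLE_401, against 1.98 to 3.12 in the other DLE libraries.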

How the results depend on the processing

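No paired analysis was possible because the groups share no replicate number. Cyp4a14 was called higher in each db/db group than in normal liver under every alternative run, in which single libraries were left out only from the groups compared. Cyp4a10 was called with PGZ and DLE under every alternative and in model liver under all but the 2 named below. The PGZ call was close to the threshold with copies summed, at an edgeR adjusted p of 0.0489 and a log2 fold change of 1.97. The lowest count of any member was 3 reads, of Cyp4a12b in model_DLE_401.

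The number of members called higher in model liver, 2, became 1 with only the groups compared, 1 with copies summed and 3 with voom, and for PGZ versus normal it became 3 with only the groups compared, in both cases by Cyp4a31. The number called lower in model liver, 0, became 1 with only the groups compared, 1 with DESeq2 and 2 with voom. For PGZ versus normal the number called lower, 0, became 3 with only the groups compared, 1 with DESeq2, 2 with voom and 2 without the 4 acute-phase-rich libraries, and 0 to 1 with each library left out. For DLE versus normal it became 1 with voom and 1 without those 4 libraries. Over all genes, calls for PGZ versus model were 2 with edgeR, 135 with DESeq2 and 1637 with voom, for DLE versus model 0, 386 and 12, for DLE versus PGZ 1, 65 and 663, for model versus normal 1429, 2440 and 4325, for PGZ versus normal 1926, 3004 and 6333, and for DLE versus normal 557, 1071 and 1512.

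Of 612 alternative values of the 36 single-member results, 533 kept direction and side of the threshold, 10 lost the call, 17 gained one and 52 reversed, all of the last between db/db groups where nothing was called. The cause was not tested. Log2 fold changes that reversed for PGZ versus model were, with upper quartile scaling, 0.014 for Cyp4a12a and 0.032 for Cyp4a12b. For Cyp4a10 they were -0.013 with no filter, -0.011 with only the groups compared, -0.298 with voom and -0.006 with copies summed. Cyp4a31 was at -0.35 with voom. Without model_327 and model_387, Cyp4a10 was at -0.821, Cyp4a14 at -0.013 and Cyp4a31 at -0.526, and without the 4 acute-phase-rich libraries Cyp4a10 was at -0.886 and Cyp4a31 at -0.593. With each library left out, Cyp4a10 ranged from -0.373 to 0.776, Cyp4a12a from -0.332 to 0.217, Cyp4a12b from -0.991 to 0.315, Cyp4a31 from -0.201 to 0.51 and Cyp4a32 from -0.6 to 0.5.

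For DLE versus model, voom gave -1.259 for Cyp4a12a, -1.887 for Cyp4a12b and -0.241 for Cyp4a32. Without model_327 and model_387 these genes were at -0.29, -0.123 and -0.712, and without the 4 libraries at -0.457, -0.823 and -0.434. With each library left out they ranged from -0.333 to 0.554, from -0.322 to 0.774 and from -0.205 to 0.895. For DLE versus PGZ, voom gave -0.766 for Cyp4a12a and -0.431 for Cyp4a12b. With each library left out Cyp4a12a ranged from -0.288 to 0.597, Cyp4a12b from -0.31 to 1.354 and Cyp4a14 from -0.048 to 1.007. Ppara in model versus normal liver was at 0.032 without model_327 and model_387 and at 0.033 without the 4. Stat5b in DLE versus model was at -0.036 without the former pair. Ghr in DLE versus PGZ, at 0.02 in the full fit, was at -0.011 with upper quartile scaling, -0.071 with voom and -0.067 without the 4 libraries, and from -0.057 to 0.173 with each library left out.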
